A study of Homo sapiens with 18 samples.

Results

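The genes described here are the 3 D cyclins (CCND1, CCND2 and CCND3), the kinases CDK4 and CDK6, the CIP/KIP inhibitors CDKN1A (p21), CDKN1B (p27) and CDKN1C (p57), and the INK4 inhibitors CDKN2A (p16 and ARF) and CDKN2B (p15). They were taken by symbol from a deposited table of 20555 genes, in which all 10 were found. MSTO-211H [sh-YAP1] is a derivative of the established human malignant pleural mesothelioma line MSTO-211H that carries a short hairpin RNA (shRNA) against YAP1, a co-activator of the TEAD transcription factors. The shRNA is switched on by doxycycline. The cells were mixed with Matrigel and grown under the skin of SCID mice, which lack mature lymphocytes but keep myeloid and stromal cells. The 0h tumors (n = 5) were taken at about 300 mm3 from mice drinking 5% glucose, and the tumors labelled 24h (n = 4), 96h (n = 5) and 216h (n = 4) came from mice that then drank 0.5 mg/ml doxycycline with 5% glucose. All 18 tumors carry the construct, no tumor without it or with doxycycline and a control shRNA was analysed here, and each time point was 1 cage group, so that time, doxycycline and cage cannot be told apart. For the last time point the labels give 216 h of doxycycline, whereas the study's text describes a 96 h course after which doxycycline was withdrawn and also lists 216 h after supplementation, and this was not settled.

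D cyclins bind and activate CDK4 and CDK6 in the G1 phase of the cell cycle. The active kinases phosphorylate the retinoblastoma protein RB1, which then releases E2F factors that drive the genes of DNA replication. INK4 proteins bind CDK4 and CDK6 and block them, whereas CIP/KIP proteins inhibit CDK2 complexes and also bind cyclin D complexes, whose assembly they can help. In mesothelioma, loss of the 9p21 region with CDKN2A and CDKN2B is a frequent event. Among the members, CDK6 is on the study's own list of genes that follow YAP1/TAZ-TEAD activity.

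Levels are given as FPKM, fragments normalized by transcript length and library size, so that levels of different genes are set side by side per length. The libraries were enriched by capture probes, and whether the recovery differed between genes was not tested, which bears on each order of levels, share and ratio between genes given here. Changes are log2 fold changes of FPKM + 1 with their standard error (SE), and a gene was called at a Benjamini-Hochberg adjusted p under 0.05 over the 11379 genes that reached 1 FPKM in 4 or more tumors (limma). Of the 10 members, 8 passed that minimum, and CDKN1C and CDKN2B did not. The number of genes listed at 0 separated the tumors into those with 5593 or more (all 5 at 0h, 2 at 24h and 3 at 216h) and those with 5179 or fewer (2 at 24h, all 5 at 96h and 1 at 216h). Mitochondrially encoded genes took 74.9% to 84.8% of the FPKM sum, with the lowest shares at 216h (74.9% to 76.0%). At 216h the median log2 fold change of all tested genes against 0h was 0.17, and changes after scaling each tumor to the same median are therefore given beside the deposited scale. YAP1, the targeted gene, was at 7.71, 10.2, 6.68, 4.82 and 6.89 FPKM at 0h, 8.16, 4.60, 5.47 and 5.01 at 24h, 3.72, 3.39, 6.81, 4.37 and 5.58 at 96h, and 6.42, 5.60, 8.85 and 7.84 at 216h. The groups overlapped, and its log2 fold changes against 0h of -0.27 (SE 0.20), -0.52 (SE 0.19) and 0.00 (SE 0.20) gave adjusted p of 0.742, 0.221 and 0.999 (limma).

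Before doxycycline CDKN1A was the most abundant member at 70.6 ± 6.34 FPKM (SD, n = 5). It was followed by CDK4 at 38.0 ± 6.31, CCND1 at 26.2 ± 2.67, CDK6 at 23.7 ± 3.57, CCND2 at 15.0 ± 2.96 and CCND3 at 14.7 ± 2.69 FPKM. CDKN1B at 3.84 ± 0.820 and CDKN2A at 1.87 ± 0.382 FPKM were lower, and CDKN1C (0.0476 ± 0.0448) and CDKN2B (0.0570 ± 0.0780) were close to 0. In this order the tumors of CCND1 and CDK6, of CDK6 and CCND2, of CCND2 and CCND3, and of CDKN1C and CDKN2B overlapped, whereas those of the other neighbours did not. At 216h the order had become CDKN1A (52.4 ± 7.89), CDK4 (47.2 ± 9.13), CCND3 (23.4 ± 5.64), CDK6 (16.2 ± 1.79), CCND2 (14.6 ± 2.58), CCND1 (14.2 ± 2.08), CDKN1B (8.93 ± 1.18) and CDKN2A (2.19 ± 0.485, all SD, n = 4). CCND1 thus went from the highest to the lowest of the D cyclins by mean FPKM, although its 216h tumors overlapped those of CCND2.

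The number of members called was 0 of 8 at 24h, 1 of 8 at 96h and 5 of 8 at 216h against 0h. Among all tested genes 0.158% were called at 24h, 1.38% at 96h and 23.3% at 216h. Of the 5 members called at 216h, 3 were lower and 2 higher, while of all tested genes 3.6% were called lower and 19.7% higher. This balance depends on the scale, since after median scaling 3 members were lower and 1 higher, and 1274 of all tested genes were lower and 992 higher. Between 96h and 216h, 3 of 8 members were called against 11.1% of all tested genes. At 24h limma gave 1 of 8 members, CDK6, with an unadjusted p under 0.05, and 1047 of all 11379 tested genes.

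CCND1, cyclin D1, fell at 216h. It was at 26.6, 22.3, 26.6, 25.7 and 29.7 FPKM at 0h, 18.0, 23.9, 26.7 and 34.1 at 24h, 21.5, 25.5, 20.6, 25.8 and 23.1 at 96h, and 15.1, 14.6, 11.2 and 15.9 at 216h. All 4 tumors at 216h were below every other tumor of the series, whereas the other groups overlapped each other. The mean at 216h was 45.8% below that at 0h, with a log2 fold change of -0.84 (SE 0.15, adjusted p = 0.000597, limma), and -1.09 after median scaling. At 24h and 96h the log2 fold changes were -0.06 (SE 0.15, adjusted p = 0.945) and -0.16 (SE 0.14, adjusted p = 0.676, limma). The fall between 96h and 216h was itself called (-0.68, SE 0.15, adjusted p = 0.00713, limma), but not with a covariate for the tumors with fewer genes at 0 (-0.42, adjusted p = 0.288, limma). On GRCh38 CCND1 spans 69641087 to 69654474 of chromosome 11 (plus strand), and 9.23% of the 31-base stretches in its GENCODE release 29 transcripts also occur in other genes, nearly all in the neighbouring LTO1. LTO1, listed as ORAOV1, was at 6.35 FPKM at 0h and 7.17 at 216h (log2 fold change 0.15, SE 0.19, adjusted p = 0.616, limma).

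CCND3, cyclin D3, rose at 216h on the deposited scale. It was at 12.4, 13.2, 16.6, 18.5 and 12.8 FPKM at 0h, 11.2, 14.4, 15.3 and 14.9 at 24h, 16.4, 17.1, 17.4, 17.4 and 21.4 at 96h, and 23.3, 31.4, 20.3 and 18.7 at 216h. Every 216h tumor was above every 0h tumor, the nearest pair being 18.7 and 18.5 FPKM. The log2 fold change was 0.63 (SE 0.15, adjusted p = 0.00573, limma), and it was not called after median scaling (0.38, adjusted p = 0.0876) or quantile normalization (0.43, adjusted p = 0.0586, limma). At 96h it was 0.28 (SE 0.14, adjusted p = 0.422, limma), and 216h against 96h gave 0.35 (SE 0.15, adjusted p = 0.143, limma).

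CCND2, cyclin D2, was not called in any comparison. Its tumors ranged from 11.8 to 19.2 FPKM at 0h, 11.7 to 15.4 at 24h, 9.28 to 13.3 at 96h and 12.4 to 18.3 at 216h. At 96h, 4 of 5 tumors were below all tumors at 0h, with a log2 fold change of -0.41 (SE 0.13, adjusted p = 0.164, limma), and at 216h the log2 fold change was -0.03 (SE 0.14, adjusted p = 0.915, limma). Of the 31-base stretches of CCND2, 13.5% also occur in other annotated genes, most of them in AC008012.1.

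The summed FPKM of the D cyclins was 55.8 ± 5.72 at 0h (n = 5), 53.2 ± 9.18 at 24h (n = 4), 52.2 ± 2.76 at 96h (n = 5) and 52.2 ± 6.39 at 216h (SD, n = 4). Within this sum CCND1 took 47.0% ± 4.07 at 0h, 47.8% ± 4.80 at 24h, 44.7% ± 3.98 at 96h and 27.2% ± 2.66 at 216h, where the highest tumor (30.1%) was below the lowest of the others (40.2%). CCND3 took 26.3% ± 3.83, 26.4% ± 1.79, 34.3% ± 2.36 and 44.7% ± 7.19 (SD). Every 96h and 216h tumor (32.2% and above) exceeded every 0h and 24h tumor (32.0% and below) in the share of CCND3. CCND2 took 26.7% ± 3.21 at 0h and 28.1% ± 4.90 at 216h. Because these shares are formed within a tumor, the scaling of the tumor cancels out, and they are given as a description without a test.

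**Figure D1:**
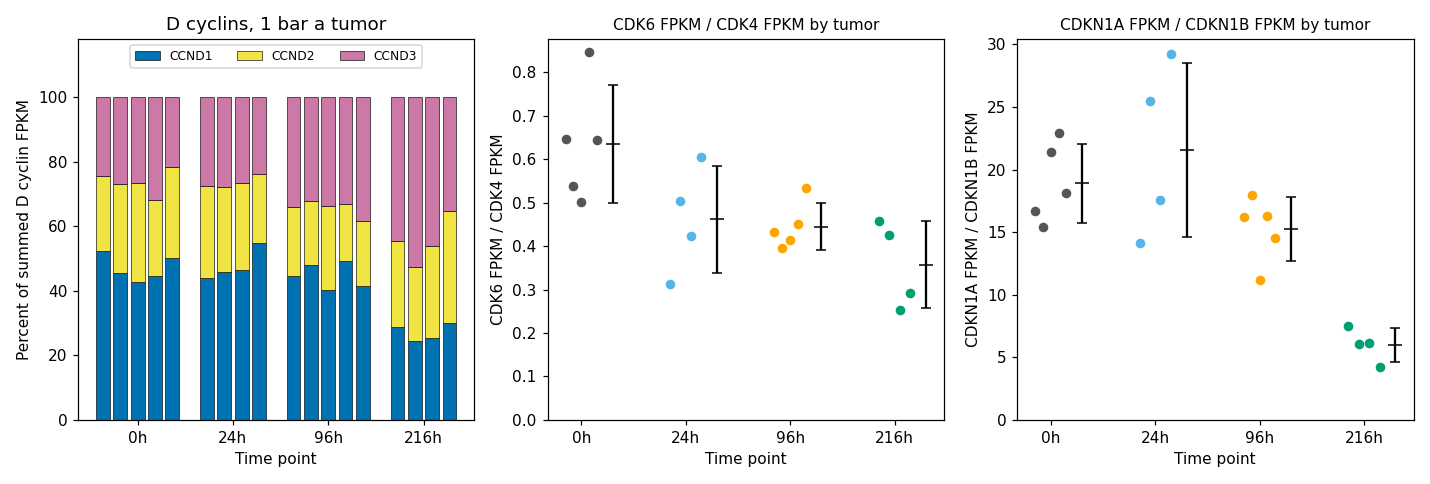
Left, share of each D cyclin in the summed D cyclin FPKM, 1 bar a tumor; centre and right, the ratio of CDK6 to CDK4 FPKM and of CDKN1A to CDKN1B FPKM in each tumor, with the mean and SD. The CCND1 share is 24.5% to 30.1% at 216h and 40.2% or more in all other tumors, and the CDKN1A to CDKN1B ratio is 4.23 to 7.48 at 216h and 11.2 or more elsewhere.

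CDK6, one of the kinases that D cyclins activate, was lower at 96h and 216h. It was at 23.0, 26.0, 17.8, 26.8 and 24.9 FPKM at 0h, 13.5, 19.0, 14.6 and 21.5 at 24h, 15.7, 13.2, 11.7, 17.2 and 18.7 at 96h, and 17.1, 18.3, 14.9 and 14.6 at 216h. The groups overlapped through the single 0h tumor at 17.8 FPKM, and the other 4 tumors at 0h were above every tumor at 24h, 96h and 216h. The mean was 27.6% lower at 24h (log2 fold change -0.45, SE 0.16, adjusted p = 0.347, limma), 35.5% lower at 96h (-0.61, SE 0.15, adjusted p = 0.0481, limma) and 31.5% lower at 216h (-0.51, SE 0.16, adjusted p = 0.0240, limma). After median scaling the log2 fold changes at 96h and 216h were -0.62 (adjusted p = 0.0233) and -0.76 (adjusted p = 0.00151, limma). The call at 96h was lost in 8 of 10 fits that left out 1 tumor, in which the log2 fold change stayed between -0.70 and -0.52. The call at 216h was lost without the 0h tumor at 26.8 FPKM (adjusted p = 0.0549) or without the 216h tumor at 14.9 (0.0674) or 14.6 FPKM (0.0674, limma). All 0h tumors had more and all 96h tumors fewer genes at 0, and with a covariate for this the 96h change was -0.73 (adjusted p = 0.260, limma). At 24h, where both kinds occurred, CDK6 averaged 16.2 FPKM in the 2 tumors with more genes at 0 and 18.1 in the 2 with fewer. Among the tumors with fewer genes at 0, CDK6 at 96h against 24h gave a log2 fold change of -0.22 (SE 0.20, adjusted p = 0.669, limma). CDK6 did not differ detectably between 96h and 216h (0.09, SE 0.16, adjusted p = 0.752, limma), and this difference turned negative after median scaling (-0.14), quantile normalization and rescaling without mitochondrial genes.

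Since CDK6 is the member on the study's YAP1/TAZ-TEAD list, the sequence upstream of the outermost of its RefSeq starts is shown together with that upstream of the RefSeq start of CDKN1A, the most abundant member, which also fell at 216h. RefSeq promoter windows of GRCh38.p14 were found for 7 of the 10 members. The upstream part of each window that overlaps no annotated exon of a protein-coding gene is given 5′ to 3′ in the direction of transcription, with matches to the SP1 motif GGGCGG on either strand in capitals. The CDK6 stretch is chr7:92836595-92836823 on the minus strand, and the CDKN1A stretch is chr6:36678464-36678657 on the plus strand, inside the annotated gene, whose first GENCODE start is at 36676460.
CDK6: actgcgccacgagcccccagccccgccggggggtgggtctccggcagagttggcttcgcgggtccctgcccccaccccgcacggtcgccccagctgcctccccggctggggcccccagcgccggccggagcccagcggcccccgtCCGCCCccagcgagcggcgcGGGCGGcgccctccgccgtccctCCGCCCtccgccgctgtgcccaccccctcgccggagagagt
CDKN1A: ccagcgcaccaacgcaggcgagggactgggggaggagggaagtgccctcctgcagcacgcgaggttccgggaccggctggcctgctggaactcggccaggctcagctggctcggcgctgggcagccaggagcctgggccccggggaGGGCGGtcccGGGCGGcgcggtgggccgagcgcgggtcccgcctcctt
The CDK6 stretch holds 3 SP1 matches, which begin 105, 85 and 62 bases before the start, and the CDKN1A stretch holds 2, at 104 and 94 bases. In the same part of all 35116 RefSeq windows, 39.8% held this motif over the length of the CDK6 stretch and 33.8% over that of the CDKN1A stretch. The TEAD motif GGAATG, the AP-1 motif TGANTCA, the E2F motif TTCCCGC and the TATA box TATAAA had 0 matches on either strand in both stretches. Over the length of the CDK6 stretch 11.1%, 6.18%, 5.02% and 10.3% of all windows held them. Over that of the CDKN1A stretch 9.48%, 5.11%, 4.25% and 7.48% did. The last 21 bases before the CDK6 start and the last 56 before the CDKN1A start were left out. A motif there, a TATA box included, could therefore not be found. These are matches of letters and not measured binding sites. Sequence outside the stretches, near or far, was not searched, so the 0 matches say nothing of motifs elsewhere. G and C made up 82.1% of the CDK6 stretch and 76.8% of the CDKN1A stretch.

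CDK4, the other kinase partner of the D cyclins, was not called against 0h. It was at 35.6, 48.4, 35.7, 31.7 and 38.6 FPKM at 0h, 42.9, 37.6, 34.6 and 35.6 at 24h, 36.4, 33.4, 28.3, 38.3 and 34.9 at 96h, and 37.4, 43.1, 58.5 and 49.9 at 216h. The groups overlapped, and 2 of the 4 tumors at 216h were above all at 0h. The log2 fold changes against 0h were 0.00 (SE 0.13, adjusted p = 0.998) at 24h, -0.14 (SE 0.13, adjusted p = 0.709) at 96h and 0.30 (SE 0.13, adjusted p = 0.114, limma) at 216h. CDK4 was higher at 216h than at 96h (0.44, SE 0.13, adjusted p = 0.0427, limma), a call that was lost after median scaling (0.20, adjusted p = 0.414) and in 8 of 9 fits that left out 1 tumor. CDK4 overlaps TSPAN31 on chromosome 12, with which it shares 1281 of its 3373 distinct 31-base stretches, and TSPAN31 itself rose from 2.85 to 5.73 FPKM between 0h and 216h (log2 fold change 0.80, SE 0.22, adjusted p = 0.0136, limma). How the fragments of such overlaps were counted is not given in the sources used here.

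The ratio of CDK6 to CDK4 FPKM was 0.635 ± 0.135 at 0h, 0.461 ± 0.124 at 24h, 0.445 ± 0.0540 at 96h and 0.357 ± 0.0991 at 216h (SD, n = 5, 4, 5 and 4). All 4 tumors at 216h (0.254 to 0.457) were below all 5 at 0h (0.500 to 0.847), while the 24h and 96h tumors overlapped both. CDK6 thus made up 38.5% ± 4.85 of the summed CDK4 and CDK6 FPKM at 0h and 26.0% ± 5.42 at 216h.

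CDKN1A, a p53 target that encodes the CDK inhibitor p21, fell at 216h. It was at 74.2, 74.0, 76.9, 61.9 and 66.0 FPKM at 0h, 62.6, 64.3, 59.5 and 71.7 at 24h, 69.0, 61.0, 52.2, 54.8 and 68.2 at 96h, and 61.4, 47.5, 56.3 and 44.3 at 216h. The 216h tumors were all below the 0h tumors, though the nearest pair (61.4 and 61.9 FPKM) was close, and they overlapped the 24h and 96h tumors. The mean was 25.8% lower at 216h (log2 fold change -0.43, SE 0.11, adjusted p = 0.00962, limma), and the log2 fold change after median scaling was -0.69. At 24h and 96h the log2 fold changes were -0.13 (SE 0.11, adjusted p = 0.792) and -0.21 (SE 0.11, adjusted p = 0.416, limma). Against 96h the change at 216h was -0.22 (SE 0.11, adjusted p = 0.221, limma), and it was called after median scaling (-0.46, adjusted p = 0.0218, limma).

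CDKN1B, which encodes p27, rose at 216h. It was at 4.45, 4.80, 3.59, 2.71 and 3.64 FPKM at 0h, 4.44, 2.52, 3.38 and 2.46 at 24h, 4.25, 3.40, 4.66, 3.37 and 4.70 at 96h, and 8.21, 7.81, 9.22 and 10.5 at 216h. All 4 tumors at 216h were above every other tumor, and the remaining groups overlapped. The mean at 216h was 2.33 times that at 0h, with a log2 fold change of 1.05 (SE 0.16, adjusted p = 0.000187, limma) and 0.82 after median scaling (adjusted p = 0.00160, limma). It was also higher than at 96h (0.97, SE 0.16, adjusted p = 0.00129, limma), while at 24h and 96h the log2 fold changes against 0h were -0.21 (SE 0.16, adjusted p = 0.742) and 0.08 (SE 0.15, adjusted p = 0.880, limma). The rise against 96h missed the threshold with a covariate for genes at 0 (0.85, adjusted p = 0.0709, limma). None of the 2836 distinct 31-base stretches of CDKN1B occurred in another annotated human gene. Mouse transcripts were not searched, and whether mouse reads add to the CDKN1B values was not tested. The ratio of CDKN1A to CDKN1B FPKM was 18.9 ± 3.16 at 0h, 21.6 ± 6.96 at 24h, 15.2 ± 2.56 at 96h and 5.97 ± 1.33 at 216h (SD, n = 5, 4, 5 and 4).

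CDKN2A and CDKN2B lie next to each other on chromosome 9 of GRCh38, from 21967753 to 21995301 and from 22002903 to 22009363 on the minus strand. CDKN2A had between 1.42 and 2.78 FPKM in all 18 tumors and was not called in any comparison. Its means were 1.87 ± 0.382 at 0h, 1.67 ± 0.215 at 24h, 1.76 ± 0.290 at 96h and 2.19 ± 0.485 at 216h (SD), and its log2 fold change at 216h was 0.15 (SE 0.13, adjusted p = 0.438, limma). This change turned negative after median scaling (-0.02) and quantile normalization (-0.08). Of the 31-base stretches of CDKN2A, 8.58% also occur in other annotated genes, mostly in CDKN2B-AS1.

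CDKN2B was at 0.142, 0, 0.142, 0 and 0 FPKM at 0h, 0.109, 0.108, 0.0707 and 0.0750 at 24h, 0.0916, 0.0166, 0.0110, 0.0452 and 0.0531 at 96h, and 0.183, 0.101, 0.356 and 0.189 at 216h. It was listed at 0 in 3 tumors, and the 216h tumors overlapped the 0h tumors. Of the neighbours of both genes, MTAP, an enzyme of the methionine salvage pathway, was at 11.2 to 29.6 FPKM over the tumors. Other genes of the region were KLHL9 with 2.14 to 5.54 FPKM, FOCAD with 0.972 to 4.65 and MLLT3 with 2.95 to 9.38, whereas IFNE was at 0 to 1.35 FPKM (mean 0.145 at 0h and 0.712 at 216h), ELAVL2 did not exceed 0.453 and DMRTA1 0.0154 FPKM, and IFNA1 and IFNB1 were listed at 0 in every tumor. Whether low values came from the human cells or from mouse transcripts was not tested, and how mouse reads were handled is not given in the sources used here.

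CDKN1C, which encodes p57, was at 0.0775, 0.0955, 0.0652, 0 and 0 FPKM at 0h and at 0.0911, 0, 0.115 and 0.171 at 24h. It was at 0.157, 0.120, 0.156, 0.218 and 0.265 FPKM at 96h and at 0.148, 0.432, 0.124 and 0.179 at 216h. All 96h and 216h tumors were above all 0h tumors, but no tumor reached 0.5 FPKM and the depth behind these values is unknown. At 24h it averaged 0.0455 FPKM in the 2 tumors with more genes at 0 and 0.143 in the 2 with fewer. At 216h the order was the other way, with 0.245 FPKM in the 3 tumors with more and 0.148 in the 1 with fewer. All 0h tumors had more and all 96h tumors fewer genes at 0, so that time and this split cannot be told apart between them. Without the filter on low values, CDKN1C and CDKN2B gave log2 fold changes of 0.21 (SE 0.07, adjusted p = 0.0414) and 0.19 (SE 0.06, adjusted p = 0.0344, limma) at 216h against 0h. Of the 20555 genes in that setting, 2312 were called higher and 361 lower. Median scaling was done only on genes past the filter, so it was not done for these members.

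At 216h some of the markers listed for host cells were also called. These markers are human gene entries, and whether their reads came from mouse or tumor cells was not tested. The summed FPKM of 10 fibroblast markers was 1354 to 1945 at 0h, 936 to 1725 at 24h, 1121 to 2223 at 96h and 3645 to 4329 at 216h, and 8 of the 10 were called higher at 216h. That of 15 leukocyte and macrophage markers was 83.0 to 124.8 at 0h and 152.1 to 249.2 at 216h. Of the 13 tested, 8 were called higher and 1 lower. Among all tested genes 19.7% were called higher and 3.6% lower. After median scaling 8 fibroblast markers were called higher, and 5 leukocyte and macrophage markers were higher and 1 lower. On that scale 992 of all 11379 tested genes were called higher and 1274 lower. The 10 endothelial markers summed to 13.0 to 17.8 FPKM at 0h and 14.6 to 24.1 at 216h. Of the 7 tested, 1 was called higher, and after median scaling 1 was higher and 1 lower. The 10 muscle markers summed to 2.13 to 75.4 FPKM at 0h and 5.54 to 127.2 at 216h, and 0 of 8 tested were called. No gene of these lists was at 0 in all tumors of a group. The 10 mesothelial markers summed to 1612 to 1926 FPKM at 0h, 1785 to 2029 at 96h and 1411 to 1569 at 216h. Most of this sum was VIM, with a mean of 1359 FPKM at 0h and 1291 at 216h. At 216h KRT8 and KRT18 were called lower against 0h, whereas MSLN and CALB2 were not called, and PDPN was listed at 0 in every tumor. KRT8 is also on the study's list of genes that follow YAP1/TAZ-TEAD activity. KRT18 (-1.22, adjusted p = 5.76e-05) and KRT8 (-0.56, adjusted p = 0.00996) were already lower and VIM (0.35, adjusted p = 0.0337, limma) higher at 96h, when CDK6 was called. The part of these cells and markers in the changes of the members at 96h and 216h was not tested, and in such bulk samples fewer cells of a type and less RNA per cell cannot be told apart.

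Other genes of the same pathway were described by lists of their roles. Of 32 further genes of the G1 restriction point, 29 were tested. None was called at 24h or 96h, where 0 and 4 had an unadjusted p under 0.05 (limma). Among all 11379 tested genes 0.158% and 1.38% were called, and 1047 and 1487 had such a p (limma). After median scaling 1 of the list was called higher at 96h, where 53 of all tested genes were. At 216h, 4 were called higher and 1 lower, where 19.7% of all tested genes were called higher and 3.6% lower, and the median log2 fold change was 0.13 against 0.17 for all tested genes. RBL2, the pocket protein p130, rose from 9.98 to 21.3 FPKM (1.03, SE 0.16, adjusted p = 0.000220, limma). CDKN2C, the INK4 inhibitor p18, rose from 2.96 to 5.93 FPKM (0.84, SE 0.19, adjusted p = 0.00421, limma). AMBRA1, the substrate receptor through which D cyclins are marked for degradation, rose from 5.16 to 10.0 FPKM (0.81, SE 0.18, adjusted p = 0.00379), and E2F7, a repressor of the E2F family, fell from 4.37 to 2.31 FPKM (-0.70, SE 0.18, adjusted p = 0.00957, limma). After median scaling, 3 were called higher and 2 lower, where 992 and 1274 of all 11379 tested genes were. RBL2, CDKN2C, AMBRA1 and E2F7 remained called on that scale.

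Of 24 E2F target genes of S phase, 23 were tested, and none was called in any of the 4 comparisons. Among all tested genes 0.158% were called at 24h, 1.38% at 96h and 23.3% at 216h against 0h, and 11.1% at 216h against 96h. E2F targets with an unadjusted p under 0.05 numbered 2 at 24h, 2 at 96h and 0 at 216h against 0h, and 2 at 216h against 96h (limma). Among all 11379 tested genes 1047, 1487, 4096 and 3022 had such a p in these comparisons (limma). The median log2 fold changes of the E2F targets against 0h were -0.06, -0.17 and -0.02, with -0.04, 0.02 and 0.17 for all tested genes. After median scaling 1 E2F target was called lower at 216h, where 1274 of all 11379 tested genes were called lower.

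Of 24 further p53 target genes, all 24 were tested, and 2 were called higher and 4 lower at 216h. Of all tested genes 23.3% were called there, 19.7% higher and 3.6% lower. GADD45A, a growth arrest gene, fell from 23.8 to 13.0 FPKM (-0.84, SE 0.12, adjusted p = 0.000171, limma) and had already been lower at 96h, at 15.7 FPKM (-0.56, SE 0.12, adjusted p = 0.0200, limma). Like CDK6, GADD45A is also on the study's list of genes that follow YAP1/TAZ-TEAD activity. MDM2, the ubiquitin ligase of p53, fell from 302.7 to 208.2 FPKM (-0.56, SE 0.14, adjusted p = 0.00858) and DDB2, a DNA repair gene, from 13.1 to 8.96 (-0.51, SE 0.12, adjusted p = 0.00443, limma). BTG2, an antiproliferative gene that also responds to other signals, rose from 4.49 to 12.4 FPKM (1.26, SE 0.18, adjusted p = 0.000118, limma). After median scaling, 1 gene of the list was called higher and 9 lower, where 992 of all 11379 tested genes were higher and 1274 lower. GADD45A, MDM2, DDB2 and BTG2 remained called at 216h on that scale. The median of the list was -0.07 on the deposited scale and -0.30 after median scaling, with 0.17 and -0.04 for all tested genes.

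Of 17 genes of signals that act on D cyclins or CDK inhibitors, none was called at 24h or 96h, each with 2 at an unadjusted p under 0.05 (limma). Among all 11379 tested genes 0.158% and 1.38% were called, and 1047 and 1487 had such a p (limma). After median scaling 1 signal gene was called higher at 96h, where 53 of all tested genes were. At 216h, 10 signal genes were called higher and none lower, where 19.7% of all tested genes were called higher and 3.6% lower. The median log2 fold change was 0.46 against 0.17 for all tested genes. After median scaling 6 signal genes were called higher and 1 lower, where 992 and 1274 of all 11379 tested genes were. EGR1, an immediate early transcription factor, rose from 17.1 to 62.2 FPKM (1.70, SE 0.22, adjusted p = 5.64e-05) and FOS, a subunit of AP-1, from 2.80 to 11.1 (1.60, SE 0.28, adjusted p = 0.000659, limma). SMAD7, an inhibitor of TGF-beta signaling, rose from 2.19 to 7.14 FPKM (1.31, SE 0.23, adjusted p = 0.000748) and KLF4, a transcription factor, from 2.36 to 6.23 (1.07, SE 0.19, adjusted p = 0.000737, limma). On the deposited scale these 4 genes were also called higher at 216h than at 96h. After median scaling EGR1, FOS and KLF4 were still called in that comparison, and SMAD7 was not (0.70, adjusted p = 0.0792, limma). Against 0h all 4 were called on both scales.

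Genes whose pattern over the 18 tumors was most like that of the most abundant D cyclin, kinase and CDK inhibitor were found by Pearson's r of log2(FPKM + 1), as a description. For CCND1 these were FXYD5 (r = 0.92), FGF5 (0.92) and DDAH1 (0.90), for CDK4 they included RASGEF1B (0.84) and ABHD16A (0.83), and for CDKN1A they were BCL2L1 (0.90), TMEM45A (0.84) and EDA2R (0.82). The tumors also share their scaling, and the mitochondrial share of FPKM had an r of 0.73 with CCND1, -0.54 with CDK4 and 0.43 with CDKN1A. EDA2R is also among the listed p53 targets, and DDAH1 is on the study's list of genes that follow YAP1/TAZ-TEAD activity.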

How the data were processed

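Exome-capture libraries of 18 tumors, 1 a mouse, were made with KAPA RNA HyperPrep and HyperCap kits and sequenced in pairs. The authors deposited 1 table of FPKM. The submitters' processing notes name STAR and GRCh38; the quantifier and the handling of mouse reads are not given in the sources used here. No counts were used, so depth is unknown and no interval was computed. The 4 blank cells were read as 0. No 2 tumors held identical values, and within groups r of log2 values was 0.97 to 0.99. All 4 groups were fitted together with limma 3.58.1 (eBayes with trend, R 4.3.3) on log2(FPKM + 1), which understates changes of low genes, for genes that reached 1 FPKM in 4 or more tumors. The fit was tested on simulated data. The p-values measure the spread between mice of 1 cage a group. The text names all members, YAP1 and, per list and comparison, at most 4 called genes with the largest change; TSPAN31, LTO1 (ORAOV1), AC008012.1 and CDKN2B-AS1 were named after their sequence overlap was seen. Members and lists were chosen with earlier results of these data known. Alternatives were 2-group fits, other filters and pseudocounts, quantile, median and mitochondria-free scaling, no trend, a covariate for genes at 0, medians for means, and leaving out each tumor; comparisons among tumors with more or fewer genes at 0 were added after seeing the data. Sequences came from RefSeq and GENCODE release 29. Other tools were Python 3.11.15, pandas 2.3.3 and matplotlib 3.10.9. A gene among those most like CDK4 is not reported here.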

Additional observations from a re-analysis of the deposited data

Results flagged for a closer look

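Of 40 sets of tumors (10 members at 4 time points), 1 held a tumor set apart from its group. CCND3 at 96h was 21.4 FPKM in 1 of 5 tumors, with the nearest at 17.4 FPKM. Chance gives about 1 such tumor in 20 sets.

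For 3 members the change from 0h differed between 216h and 96h by limma's test of the contrast of both groups. The difference was -0.68 on the log2 scale for CCND1 (SE 0.15, adjusted p = 0.00713, lower in 4 of 4 tumors), 0.97 for CDKN1B (SE 0.16, adjusted p = 0.00129, higher in 4 of 4 tumors) and 0.44 for CDK4 (SE 0.13, adjusted p = 0.0427, limma), for which 3 of 4 tumors at 216h were above all at 96h.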

How the results depend on the processing

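No paired analysis was possible because each mouse was in 1 group and tumors were numbered only in accession order. The 5 members called at 216h against 0h were CCND1, CCND3, CDK6, CDKN1A and CDKN1B; CCND1, CDKN1A and CDKN1B were called in each of the 10 other settings and of the 9 fits without 1 tumor, CCND3 in 7 and 9 of them and CDK6 in 9 and 6. Among the tumors with more genes at 0 alone, 3 members and 1529 genes were called at 216h (2656 over all tumors), and 1 gene at 24h (18 over all tumors). The single member called at 96h, CDK6, became 0 with no filter, a pseudocount of 0.1, quantile normalization, a fit of the 2 groups alone, no trend or the covariate for genes at 0. That covariate also left 0 members called between 96h and 216h, and 6, 27 and 45 genes at 24h and 96h against 0h and at 216h against 96h. Over all genes, 32 were called at 24h with a filter of 5 FPKM and 0 with limma's fit of the 2 groups alone, in which 807 genes had an unadjusted p under 0.05. At 216h against 96h, 1260 genes became 692 with quantile normalization, 657 with median scaling and 613 with rescaling without mitochondrial genes. At 216h against 0h, 2246 genes were higher and 410 lower on the deposited scale, 992 and 1274 after median scaling and 1037 and 980 after quantile normalization.

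Leaving out 1 tumor gave 7 to 24 genes at 24h, 74 to 152 at 96h, 2048 to 2621 at 216h and 708 to 1283 at 216h against 96h, and 0, 0 to 1, 4 to 6 and 2 to 3 members. It moved the sign of log2 fold changes that were not called, over ranges of -0.20 to 0.0955 for CCND1, -0.11 to 0.0309 for CCND3 and -0.0641 to 0.0875 for CDK4 at 24h, -0.0148 to 0.15 for CDKN1B and -0.11 to 0.00129 for CDKN2A at 96h, and -0.13 to 0.0632 for CCND2 at 216h. Other settings turned CCND1 at 24h (0.000381 with quantile normalization), CDK4 at 24h (0.0566 with quantile normalization, 0.0543 with median scaling, 0.0264 without mitochondrial genes, 0.14 with the covariate, 0.0938 among tumors with more genes at 0), CDKN2A at 24h (0.00681) and 96h (0.15) and CDK4 at 96h (0.15) with the covariate, and, with quantile normalization and median scaling, CDKN2A at 216h (-0.0785 and -0.0235) and CDK6 between 96h and 216h (-0.13 and -0.14, and -0.0661 without mitochondrial genes). The cause was not tested. Of 48 levels and ratios, medians or a pseudocount of 1 moved none by more than 1 SD. The number of tumors limits the precision, and the depth is unknown.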
